A study of Mus musculus with 4 samples.

Results

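Cycling alveolar macrophages were taken from mouse lung tumours as the cells that carried both alveolar macrophage RNA and the RNA of dividing cells. A cell entered when, in a library kept before bead depletion, it had at least 200 detected genes, at most 20% mitochondrial UMIs (unique molecular identifiers, 1 per captured RNA molecule), at least 3 UMIs summed over Ear1, Atp6v0d2 and Krt79, no UMI of Cd3e, Cd79a or Epcam, and at least 3 UMIs summed over Top2a, Mki67 and Birc5. The rule found 136 cells, 77 in the vehicle library and 59 in the tamoxifen library, among 1387 macrophages of the gate (641 and 746) and 28085 kept cells of the whole series. The remaining 1251 macrophages, with at most 2 UMIs of the 3 cycle genes (564 and 687 cells), are called comparison macrophages here. Both groups were defined by measured RNA, so what separates them is a description and carries no test.

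The study sequenced 4 single-cell libraries, 1 for each of 4 groups: vehicle or tamoxifen, each before and after removal of CD45+ and CD31+ cells on beads. All groups share 1 genotype label, KrasFSF-G12D, p53frt, Rosa-FSF-CreERT2 and Hnf4aflox. The vehicle animals thus carried the floxed allele of Hnf4a and the Flp-activated CreERT2 as well. The library titles name the vehicle libraries KP and the tamoxifen libraries KPH. Tumours were started with an adenovirus in which the surfactant protein C promoter of alveolar type II cells drives FlpO, which limits recombination to cells using that promoter. Injection followed 10 weeks later and collection 2 weeks after that; tumours large enough to be cut out singly were dissociated, frozen, thawed and sorted for live single cells. The labels call the vehicle ethanol in 1 place and corn oil in another, give no age, and leave the number of animals and tumours per library unstated. With 1 library a group, no difference between treatments has a replicate check, and directions are for the libraries as labelled.

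Alveolar macrophages live in the air spaces, take up surfactant, and depend on GM-CSF signalling and the nuclear receptor Pparg. They are known to renew themselves by division inside the lung, with little help from blood monocytes at rest. A dividing cell first licenses replication origins by loading the Mcm helicase, copies its DNA in S phase with enzymes of nucleotide synthesis and new histones, and then builds a spindle, aligns its chromosomes and separates them under the anaphase-promoting complex. The S-phase genes are classic targets of E2F factors, while many late genes are read through a CCAAT box and a short element named the cell cycle homology region, recognised by the DREAM and MuvB-FoxM1 complexes.

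Late cell cycle genes share short promoter elements, and the promoters of 5 genes that the results below turn on are printed to show them. Cyclin B2, Cdc20 and Kif11 act in mitosis, and Pclaf and Mcm5 in S phase. The sequences run from 250 bases before to 50 bases after the RefSeq start, from the RefSeq table for GRCm38.p6, 5′ to 3′ on the gene's strand. Capitals mark the letters of 3 motifs, searched on both strands. The cell cycle homology region was searched as TTTGAA, which reads TTCAAA on the other strand. The CCAAT box reads ATTGG there. The E2F type was searched as TTTGGCGC and TTTCCCGC, which read GCGCCAAA and GCGGGAAA; none of these strings contains another.
Ccnb2 (chr9:70421505-70421804, minus strand): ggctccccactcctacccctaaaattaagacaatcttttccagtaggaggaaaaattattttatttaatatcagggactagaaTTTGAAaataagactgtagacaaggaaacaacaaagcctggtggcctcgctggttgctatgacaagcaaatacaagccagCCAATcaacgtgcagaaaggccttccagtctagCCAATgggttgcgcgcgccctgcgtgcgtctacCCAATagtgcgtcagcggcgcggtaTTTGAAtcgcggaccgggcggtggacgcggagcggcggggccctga
Cdc20 (chr4:118437294-118437593, minus strand): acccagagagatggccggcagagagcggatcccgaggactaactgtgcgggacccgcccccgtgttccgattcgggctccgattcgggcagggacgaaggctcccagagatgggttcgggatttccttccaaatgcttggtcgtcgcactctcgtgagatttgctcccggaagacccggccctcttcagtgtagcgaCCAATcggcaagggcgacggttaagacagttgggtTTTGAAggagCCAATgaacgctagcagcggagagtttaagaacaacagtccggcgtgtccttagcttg
Kif11 (chr19:37376132-37376431, plus strand): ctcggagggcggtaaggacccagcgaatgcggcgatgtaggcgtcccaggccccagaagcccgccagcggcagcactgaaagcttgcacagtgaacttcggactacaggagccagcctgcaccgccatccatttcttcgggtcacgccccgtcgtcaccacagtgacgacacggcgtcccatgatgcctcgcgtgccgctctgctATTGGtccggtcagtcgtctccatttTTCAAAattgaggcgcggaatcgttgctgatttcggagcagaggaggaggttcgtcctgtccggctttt
Pclaf (chr9:65890073-65890372, plus strand): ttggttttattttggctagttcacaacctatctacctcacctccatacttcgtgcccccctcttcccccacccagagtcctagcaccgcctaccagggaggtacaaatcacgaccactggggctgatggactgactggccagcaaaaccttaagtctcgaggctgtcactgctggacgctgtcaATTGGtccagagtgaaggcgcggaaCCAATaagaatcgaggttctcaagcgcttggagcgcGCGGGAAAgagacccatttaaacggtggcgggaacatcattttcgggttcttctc
Mcm5 (chr8:75109259-75109558, plus strand): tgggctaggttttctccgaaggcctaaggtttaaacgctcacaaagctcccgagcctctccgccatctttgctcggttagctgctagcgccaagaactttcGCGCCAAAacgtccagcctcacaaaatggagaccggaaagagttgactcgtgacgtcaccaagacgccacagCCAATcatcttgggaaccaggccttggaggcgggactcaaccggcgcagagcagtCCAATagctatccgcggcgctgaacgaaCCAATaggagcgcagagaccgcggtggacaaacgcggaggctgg

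In these letters Ccnb2 has TTTGAA 5 bases after its start and 3 CCAAT boxes at -87, -54 and -21, spaced 33 bases apart. Cdc20 has TTTGAA at -18 and CCAAT at -53, and Kif11 has TTCAAA at -19 and ATTGG at -45. Pclaf has no TTTGAA in the window but GCGGGAAA at -5, and Mcm5 has GCGCCAAA at -149 beside 3 CCAAT boxes. Over the lists described below, TTTGAA was present in 36 of 49 promoters of the mitotic genes (73.5%), in 4 of 45 promoters of the S-phase genes (8.89%), in 12.1% of the promoters of all genes considered and in 17.9% of all promoters in the table. CCAAT was in 75.5% of the mitotic, 57.8% of the S-phase and 37.4% of all promoters, and in 37.6% of those of genes considered. An E2F-type motif was in 26.7% of the S-phase, 4.08% of the mitotic and 1.56% of all promoters, and in 3.17% of those of all genes considered. The promoters belong to 45 of the 50 mitotic genes and 37 of the 45 S-phase genes, some with more than 1 start, and a match describes the letters only.

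Library depth, other cell types and the gate itself were examined first. The cycling macrophages held a median of 10724 UMIs a cell in the vehicle and 11374 in the tamoxifen library, against 7913.5 and 7492 in the comparison macrophages, a ratio of 1.36 and 1.52. With comparison cells matched to the members on depth, the rule of size described below called 365 genes higher and 85 lower, against 360 and 91 with all of them; 312 of the 360 and 33 of the 91 were among those called. Ear1 was detected in 97.4% and 94.9% of the cycling cells and Atp6v0d2 in 96.1% and 98.3%, a share that the rule itself set. Markers of other cell types were summed in the same cells. T and NK cell markers summed to 4 UMIs in each library, with Cd3e barred by the gate, erythroid markers to 0, and neutrophil markers to 59.4 and 53.4 CPM (UMIs of a gene scaled to a fixed total of the pooled cells), below the 223 and 297 CPM of comparison macrophages. Monocyte markers stood at 381 and 548 CPM, with 51.3% of the latter in 1 cell, against 443 and 426 CPM in comparison macrophages. Epithelial markers summed to 452 and 509 CPM, against 814 and 704 CPM, and those of C1q macrophages to 466 and 457 CPM, against 753 and 702 CPM. Dendritic cell markers summed to 20.6 and 25.3 CPM, against 47.9 and 37.2 CPM, and B and plasma cell markers to 18.3 and 45.0 CPM, against 24.3 and 25.1 CPM. The part of these cell types in the results was not tested. Between 10 and 18 barcodes were shared by any pair of libraries, and none of them was a member. After bead depletion the gate held 3 cells in each library, none cycling.

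The clause on Epcam, an epithelial adhesion gene, removed many cells that otherwise looked like macrophages. It left out 1111 cells in the vehicle and 1491 in the tamoxifen library that passed every other clause, and 992 and 1309 of these had at most 1 UMI of the epithelial keratins Krt8 and Krt18. In those keratin-poor cells Krt8 stood at 8.02 and 9.04 CPM, against 1249 and 1147 CPM in epithelial cells of the same libraries, while the macrophage gene Chil3 stood at 6780 and 5443 CPM; their Epcam level was 316 and 301 CPM, against 678 and 639 CPM in epithelial cells. Of them, 87 and 99 had at least 3 cycle UMIs. These left-out cells share no cell with the members, and they are used below as a second set of cells from the same libraries, a choice made after the data had been seen.

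Hnf4a, the floxed gene, encodes a liver and gut transcription factor. It was at 0 UMIs in the cycling macrophages of both libraries, which allows at most 3.43 CPM in the vehicle and 4.22 CPM in the tamoxifen library. In epithelial cells of the same libraries Hnf4a stood at 48.3 CPM (95% interval 44.9 to 51.9) with vehicle and 83.9 CPM (79.8 to 88.2) with tamoxifen, so its RNA was not lower in the library labelled tamoxifen. The labels do not say which exons are flanked, and reads of the 3′ end outside them would not check the deletion. Cre, flpO, GFP and Tdtomato had no UMI in the members.

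Cycling cells made up 12.01% of the macrophages of the gate in the vehicle library (77 of 641, Clopper-Pearson 95% interval 9.60% to 14.8%) and 7.91% in the tamoxifen library (59 of 746, 6.07% to 10.1%). The intervals, which cover counting error only, overlap. After thinning each cell to 5000 UMIs, which leaves out shallower cells, the shares were 10.0% (71 of 709, 7.90% to 12.5%) and 6.52% (55 of 844, 4.95% to 8.40%). Without the Epcam clause they were 10.2% (179 of 1752, 8.84% to 11.7%) and 8.05% (180 of 2237, 6.95% to 9.25%), a smaller gap. Neutrophils, which do not divide after leaving the bone marrow, passed the same cycle rule in 0.950% (4 of 421) and 0.365% (1 of 274) of cells. Their median depths were 3616 and 3910.5 UMIs, against 8213 and 7773.5 in the macrophages of the gate, so these shares are no background at the macrophages' depth. Thinned neutrophils passed in 1.20% (1 of 83, 0.0305% to 6.53%) and 1.75% (1 of 57, 0.0444% to 9.39%). Within the same libraries 7.35% and 5.98% of epithelial cells passed the cycle rule at median depths of 26066 and 28513 UMIs, and 7.53% and 6.42% of T cells at 5976.5 and 6288 UMIs. After thinning these shares were 6.27% and 5.41% for epithelial cells and 8.41% and 6.82% for T cells.

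The members ranged from cells just past the threshold to cells rich in all 3 rule genes. The median was 11 UMIs of Top2a (DNA topoisomerase II), Mki67 (a coat of mitotic chromosomes) and Birc5 (survivin, of the chromosomal passenger complex) in both libraries, and the highest cells held 102 and 109. All 3 genes were present in 43 of 77 and 29 of 59 cells, 2 of them in 25 and 21, and only 1 in 9 and 9. Mki67 was detected in 97.4% and 89.8% of the members, Birc5 in 80.5% and 83.1% and Top2a in 66.2% and 61.0%. Just outside the threshold, at 2 UMIs, stood 24 and 25 comparison cells, and just inside, at 3 UMIs, stood 13 and 9 members. Genes of the mitotic lists that the rule did not use were higher in cells with more cycle UMIs: from cells with 0 to cells with at least 20, their summed level went from 369 to 8387 CPM in the vehicle library and from 356 to 8321 CPM in the tamoxifen library. The S-phase lists went from 605 to 3432 CPM and from 572 to 3802 CPM over the same bins. Neither this sum nor that of the identity genes changed evenly from bin to bin; the identity genes went from 16866 to 11420 CPM and from 14492 to 11438 CPM.

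**Figure D1:**
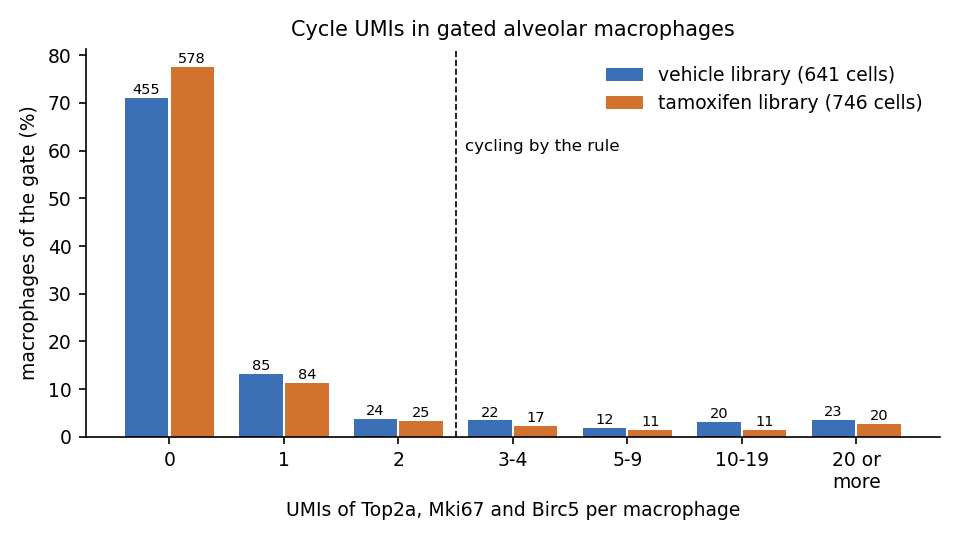
Percent of the macrophages of the gate (y axis) by their summed UMIs of Top2a, Mki67 and Birc5 (x axis, binned) in the vehicle and tamoxifen libraries, with the number of cells above each bar and a dashed line at the threshold of the rule. Most cells hold 0 UMIs (455 and 578), and the members spread over the bins up to 20 UMIs or more (23 and 20 cells).

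Genes were compared between cycling and comparison macrophages on UMIs pooled over the cells of a library. A gene was called higher or lower when it reached 10 CPM in either group and differed at least 2-fold, on the log2(CPM + 1) scale, the same way in both libraries. That rule called 360 of 8282 genes higher (4.35%) and 91 lower (1.1%). Of the 163 cell cycle genes considered, taken from 12 lists and leaving out the 3 rule genes, 142 were higher and 1 was lower, with a median log2 ratio of 2.86 in the vehicle and 2.84 in the tamoxifen library. Over all genes considered the medians were 0.00 and 0.06. Because cell cycle genes chose the cells, these counts describe the members and are not support for the rule.

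Origin licensing and fork genes stood about 4-fold higher in the cycling cells. Of 14 licensing genes 13 were higher (median log2 ratio 2.16 and 1.89), and of 17 fork genes 15 (2.05 and 2.13). Mcm2, a subunit of the replicative helicase, stood at 64.0 CPM in cycling and 11.3 CPM in comparison macrophages of the vehicle library and at 52.0 and 8.86 CPM in the tamoxifen library, a log2 ratio of 2.41 (95% interval 1.95 to 3.06) and 2.43 (1.90 to 3.19). Mcm10, which helps to start the fork, stood at 34.3 against 1.75 CPM and 15.5 against 1.02 CPM, and Mcm5, another subunit of the helicase ring, at 42.3 against 8.15 CPM and 33.7 against 6.14 CPM. Pcna, the sliding clamp of the polymerases, was abundant in both kinds of cell, at 517 against 131 CPM and 378 against 118 CPM, so its log2 ratio was 1.97 and 1.68. Uhrf1, which copies DNA methylation to the new strand, stood at 58.3 against 4.27 CPM and 59.0 against 5.79 CPM. Pclaf, which binds the clamp, had little background: 432 against 9.12 CPM and 496 against 6.48 CPM.

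Nucleotide synthesis, histone and repair genes separated the groups further. Of 9 nucleotide synthesis genes 8 were higher (medians 2.96 and 2.12). Rrm2, the cell-cycle-bound subunit of ribonucleotide reductase, stood at 150 against 3.10 CPM and 117 against 2.56 CPM. Tk1, thymidine kinase, stood at 70.8 against 2.13 CPM and 92.8 against 3.75 CPM. Of 9 histone genes 7 were higher (medians 3.63 and 4.39), and the linker histone gene Hist1h1b stood at 192 against 0.970 CPM and 201 against 1.36 CPM. All 11 DNA repair genes considered were higher (medians 2.93 and 3.27).

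Every gene of mitosis considered was higher: 20 of 20 kinetochore and checkpoint genes (medians 3.94 and 4.27), 27 of 27 spindle and cytokinesis genes (4.66 and 4.65), 7 of 7 genes of the anaphase-promoting complex and its partners (4.47 and 4.50) and 17 of 17 chromosome structure genes (2.24 and 2.60). Cenpf, a kinetochore protein (1:189640606-189688086, minus strand, GRCm38), stood at 203 CPM in cycling and 1.75 CPM in comparison cells with vehicle and at 173 and 1.70 CPM with tamoxifen. Kif11, the motor that pushes spindle poles apart, stood at 140 against 0.970 CPM and 112 against 1.02 CPM. Both genes were near 0 in the comparison cells. Bub1, a kinase of the spindle checkpoint, stood at 78.8 against 0.776 CPM and 71.7 against 0.682 CPM, and Cenpe, a kinetochore motor, at 147 against 2.13 CPM and 164 against 1.19 CPM. Ube2c, the ubiquitin-conjugating enzyme of the anaphase-promoting complex, stood at 379 against 5.63 CPM and 381 against 5.28 CPM. Cdc20, which activates that complex, stood at 64.0 against 1.94 CPM and 91.4 against 1.87 CPM. Among the condensin genes, which compact chromosomes, Ncapg stood at 53.7 against 0.970 CPM and 53.4 against 0.852 CPM, while Smc4 had a higher base level in the other cells, at 351 against 102 CPM and 395 against 114 CPM.

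Among the cyclins, those of S phase and mitosis were higher, and no D-type cyclin passed the rule. Ccna2, cyclin A2 (3:36564865-36572150, minus strand), stood at 178 against 1.75 CPM and 135 against 1.19 CPM, a log2 ratio of 6.03 (5.71 to 7.83) and 5.95 (5.72 to 8.17). Ccnb1, cyclin B1 (13:100778650-100786570, minus strand), stood at 84.5 CPM against a single UMI (0.194 CPM) in the vehicle library and at 77.3 against 2.05 CPM in the tamoxifen library. Cdk1, the kinase of both, stood at 184 against 8.15 CPM and 187 against 6.99 CPM. The E-type cyclins, which act at the entry to S phase, were under 10 CPM in both kinds of cell of the tamoxifen library and did not enter the count: Ccne1 stood at 29.7 against 4.46 CPM and 9.84 against 2.56 CPM, and Ccne2 at 28.6 against 1.55 CPM and 7.03 against 2.22 CPM.

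The D-type cyclins carry growth factor signals to the retinoblastoma protein. Ccnd2 was the most abundant of them, at 273 against 239 CPM and 256 against 311 CPM, a log2 ratio of 0.19 (-0.01 to 0.39) and -0.28 (-0.51 to -0.06). Ccnd3 stood at 102 against 121 CPM and 110 against 135 CPM. Ccnd1 was scarce, at 5.71 against 15.9 CPM, past 2-fold in the vehicle library, and 9.84 against 12.8 CPM. Its level in the left-out macrophages was 41.8 against 15.9 CPM and 17.0 against 21.2 CPM, the other way in the vehicle library. In all, 8 of 15 cyclin and kinase genes were higher: Ccna2, Ccnb1, Ccnb2, Ccnf, Cdk1, the phosphatase gene Cdc25b and the kinase partners Cks1b and Cks2.

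Of 12 E2F-related regulators 7 were higher. Foxm1, the activator of late cell cycle genes, stood at 34.3 against 0.582 CPM with vehicle and at 29.5 CPM against 0 UMIs with tamoxifen. E2f8, a repressor made late in S phase, stood at 37.7 against 1.36 CPM and 32.3 against 1.02 CPM. E2f1, an activator, was called higher too, at 44.5 against 15.5 CPM and 36.5 against 16.7 CPM.

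Inhibitors of cyclin-dependent kinases were mixed: of 5 considered, 2 were higher and 1 was lower. Cdkn2c (p18) stood at 43.4 against 4.66 CPM and 32.3 against 1.87 CPM, and Cdkn2d (p19) at 61.7 against 13.4 CPM and 60.4 against 8.86 CPM. Both belong to the INK4 family, which binds Cdk4 and Cdk6. Cdkn2a (4:89274471-89294653, minus strand), whose locus encodes p16 and Arf, was lower in the cycling cells, at 13.7 against 32.2 CPM (log2 ratio -1.18, -2.21 to -0.39) and 19.7 against 48.6 CPM (-1.26, -2.19 to -0.53). In the left-out macrophages Cdkn2a was lower in the cycling cells too, at 23.7 against 60.4 CPM and 12.8 against 92.1 CPM. Its neighbour Cdkn2b (p15) was too low in the vehicle library to be considered, at 3.43 against 9.51 CPM and 4.22 against 14.3 CPM. Cdkn1a (p21) was abundant in both kinds of cell, at 402 against 372 CPM and 295 against 395 CPM, and passed in neither direction.

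**Figure D2:**
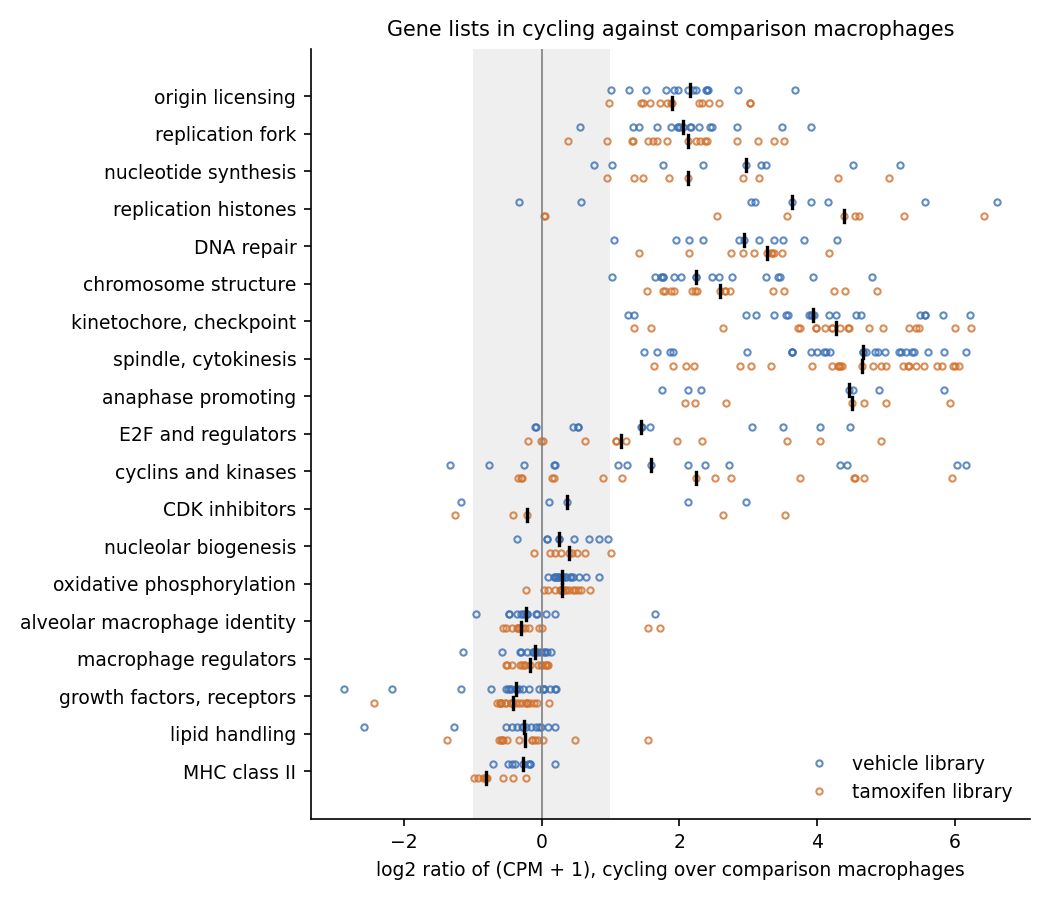
Log2 ratio of (CPM + 1) in cycling over comparison macrophages (x axis) for the considered genes of each list (rows), 1 open point per gene, with a black mark at each list median, blue for the vehicle and orange for the tamoxifen library; the grey band spans changes under 2-fold. The spindle and cytokinesis genes lie farthest right (medians 4.66 and 4.65), and the macrophage lists lie around 0 or just below it.

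Individual members differed in how much S-phase and how much mitotic RNA they held. The median member held 19 UMIs of the S-phase lists and 44 of the mitotic lists in the vehicle library, and 14 and 32 in the tamoxifen library, against 4 and 3 UMIs in the comparison cells of both. Mitotic UMIs outnumbered S-phase UMIs in 52 of 77 and 47 of 59 members, and S-phase UMIs outnumbered mitotic ones in 23 and 11. Among members thinned to 5000 UMIs the mitotic sum was the larger in 47 of 71 and 43 of 56. The 3 rule genes are themselves made mainly in G2 and mitosis, so the rule sets this balance in part. Of the comparison macrophages, 23 (5.03%, 3.22% to 7.46%) and 36 (6.46%, 4.57% to 8.84%) reached the members' own median of S-phase UMIs after thinning.

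**Figure D3:**
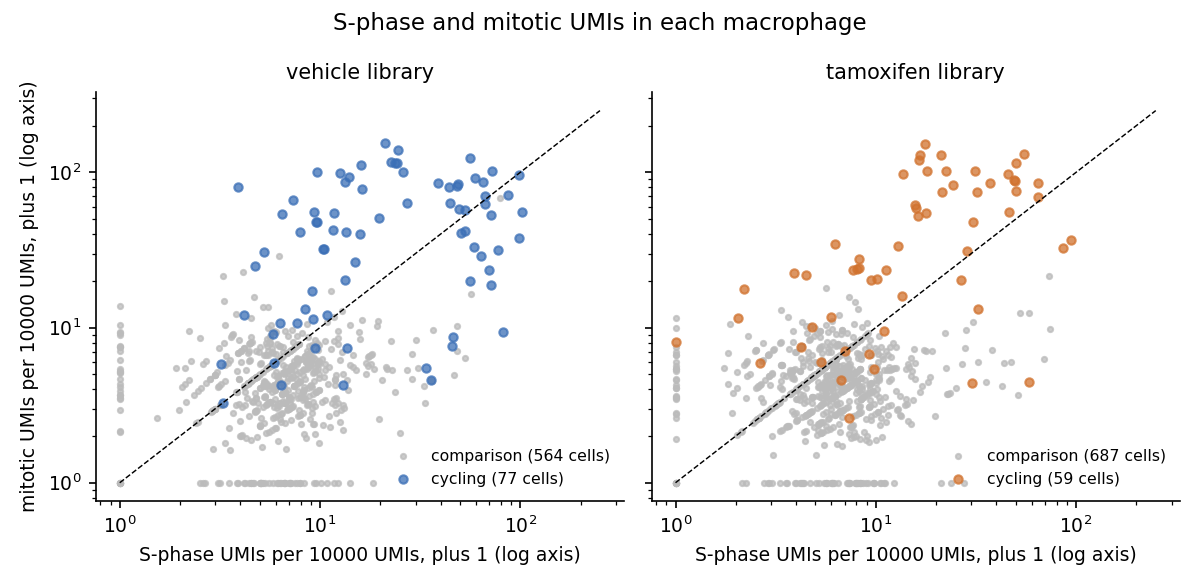
S-phase list UMIs (x axis) against mitotic list UMIs (y axis) of each macrophage, scaled to the cell's total UMIs, plus 1, on log axes, in the vehicle and tamoxifen libraries, with members coloured, comparison cells grey and a dashed line of equality. Most members lie above the line (52 of 77 and 47 of 59 by UMIs), and some comparison cells reach far along the S-phase axis.

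Some of the genes called higher were outside the lists. Of the 360 genes called higher, 206 were detected in at least 25% of the cycling cells of both libraries, and 7 had 50% or more of their UMIs in 1 cell in either library. Aspm, a spindle pole protein (1:139454772-139494091, plus strand), stood at 64.0 against 0.388 CPM and 57.6 against 0.341 CPM. Esco2 joins sister chromatids, Nek2 and Cep55 act at the centrosome and the midbody, and Melk and Pbk are mitotic kinases; these and Cdca3, Shcbp1, Knstrn, Iqgap3, Neil3, Depdc1a, Prr11 and Kif14 were among the 15 with the largest ratios. Abundant chromatin and transport genes also passed: Ptma, an acidic chromatin protein, stood at 2987 against 1265 CPM and 3293 against 1212 CPM, Nucks1 at 448 against 107 CPM and 434 against 96.8 CPM, Dek at 407 against 86.9 CPM and 382 against 83.5 CPM, and Ran, the nuclear transport GTPase, at 591 against 239 CPM and 586 against 193 CPM. In the left-out macrophages 299 of the 360 genes (83.1%) were called higher too and 354 (98.3%) had the same sign. Of the 360, 337 were considered there, and the rule called 4.65% of all genes considered there higher. The left-out cells were split by the same 3 cycle genes, and the 360 include these 3 and 142 genes of the cell cycle lists. Agreement on cell cycle genes was thus built in and is not support.

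The genes that identify alveolar macrophages were kept by the cycling cells at slightly lower levels. Both groups had to hold UMIs of the macrophage rule genes, so the gate sets this in part. Of 14 considered, none was lower under the rule and 1, Marco, was higher, while 10 lay below 0 in both libraries (median log2 ratio -0.23 and -0.30). Of all 8272 genes considered outside the rule, 2707 lay below 0 and 3103 above 0 in both, with medians of 0.00 and 0.06, beside which the counts of this and the next lists stand. Chil3, a chitinase-like secreted protein, stood at 6129 against 8545 CPM and 4686 against 5803 CPM, a log2 ratio of -0.48 (-0.52 to -0.44) and -0.31 (-0.36 to -0.26). Mrc1, the mannose receptor, stood at 801 against 924 CPM and 758 against 959 CPM. Pparg, the master regulator of this cell type, stood at 222 against 256 CPM and 245 against 244 CPM, beside the level of the comparison macrophages. Siglecf, a sialic acid receptor, stood at 26.3 against 51.8 CPM and 61.8 against 75.7 CPM. Fabp4, a fatty acid carrier, stood higher in both libraries, at 187 against 163 CPM and 320 against 109 CPM, and past 2-fold with tamoxifen only, with 33.5% and 34.6% of its UMIs in 1 member. Fabp4 stood lower in the cycling cells of the left-out macrophages, at 64.8 against 99.1 CPM and 75.9 against 84.4 CPM.

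Marco, a scavenger receptor (1:120474538-120505024, minus strand), stood at 97.1 against 30.5 CPM and 77.3 against 22.8 CPM. Single cells gave 31.8% and 50.9% of its UMIs in the members. In the left-out macrophages Marco stood at 38.3 against 34.1 CPM and 7.81 against 16.8 CPM, so the difference was not seen there.

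The receptors of the macrophage growth factors showed no call. Of 21 genes of the growth factor axis 14 lay below 0 in both libraries and 1, Csf1, was called lower (medians -0.36 and -0.42). Csf2rb, the signalling chain of the GM-CSF receptor, stood at 227 against 295 CPM and 252 against 337 CPM, and Csf2ra, its binding chain, at 153 against 185 CPM and 119 against 181 CPM. Csf1r, the M-CSF receptor, stood at 85.7 against 111 CPM and 95.6 against 130 CPM. Csf1, its ligand, was scarce, at 5.71 against 14.2 CPM and 1.41 against 11.9 CPM. Of 14 lipid handling genes 1 was lower, Abca1, a cholesterol exporter, at 57.1 against 139 CPM and 43.6 against 115 CPM.

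Antigen presentation genes lay lower in the members. Of 9 genes of MHC class II and its partners none passed the rule, but 8 lay below 0 in both libraries, with a median of -0.27 and -0.81. H2-Aa, an alpha chain, stood at 701 against 949 CPM and 552 against 971 CPM. Cd74, the invariant chain, stood at 2147 against 2420 CPM and 1376 against 2600 CPM. The left-out macrophages did not show this in the vehicle library: 3 of 9 lay below 0 in both libraries (medians 0.09 and -0.19), and H2-Ab1 stood at 1927 against 1530 CPM and 1378 against 1571 CPM. Genes of oxidative phosphorylation lay slightly above 0, 16 of 17 in both libraries (medians 0.29 and 0.30), and so did 8 of 9 nucleolar genes (0.25 and 0.40); neither list had a gene past 2-fold. Ndufa4, of the respiratory chain, stood at 257 against 176 CPM and 280 against 199 CPM.

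None of the 15 transcription factors and other regulators listed for alveolar macrophages passed (medians -0.09 and -0.17). Maf was scarce in both kinds of cell, at 3.43 against 6.60 CPM and 8.43 against 6.31 CPM. Myc and Klf4, tied to self-renewal, did not differ by 2-fold: Myc stood at 17.1 against 15.5 CPM and 18.3 against 20.6 CPM, and Klf4 at 265 against 328 CPM and 253 against 340 CPM. Bhlhe40, a repressor tied to the self-renewal of alveolar macrophages, stood at 348 against 368 CPM and 295 against 359 CPM.

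Lists of macrophage function gave no call either, and most of their medians lay below 0. Of 12 phagocytic receptors 7 lay below 0 in both libraries (medians -0.29 and -0.28). Mertk, which takes up dying cells, stood at 331 against 515 CPM and 374 against 575 CPM, and Clec4n, the C-type lectin dectin-2, at 484 against 740 CPM and 498 against 838 CPM. Of 10 genes of tumour-associated macrophages 8 lay below 0 in both (-0.49 and -0.49). Mmp12, macrophage elastase, stood at 177 against 580 CPM and 458 against 663 CPM, and Arg1, arginase, at 113 against 166 CPM and 25.3 against 85.7 CPM. Among left-out macrophages 2 of these 10 lay below 0 in both (0.26 and -0.49), and Mmp12 stood at 983 against 619 CPM and 461 against 1148 CPM. Early response and heat shock genes lay near the same level (-0.21 and -0.23); Junb stood at 1255 against 1831 CPM and 1113 against 1756 CPM. Medians of glycolysis (0.12 and 0.01), sterol synthesis (-0.07 and -0.42), interferon-stimulated genes (0.41 and 0.04), inflammatory mediators (0.04 and -0.62) and p53 targets (0.05 and -0.15) had no gene past the rule in both libraries.

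**Figure D4:**
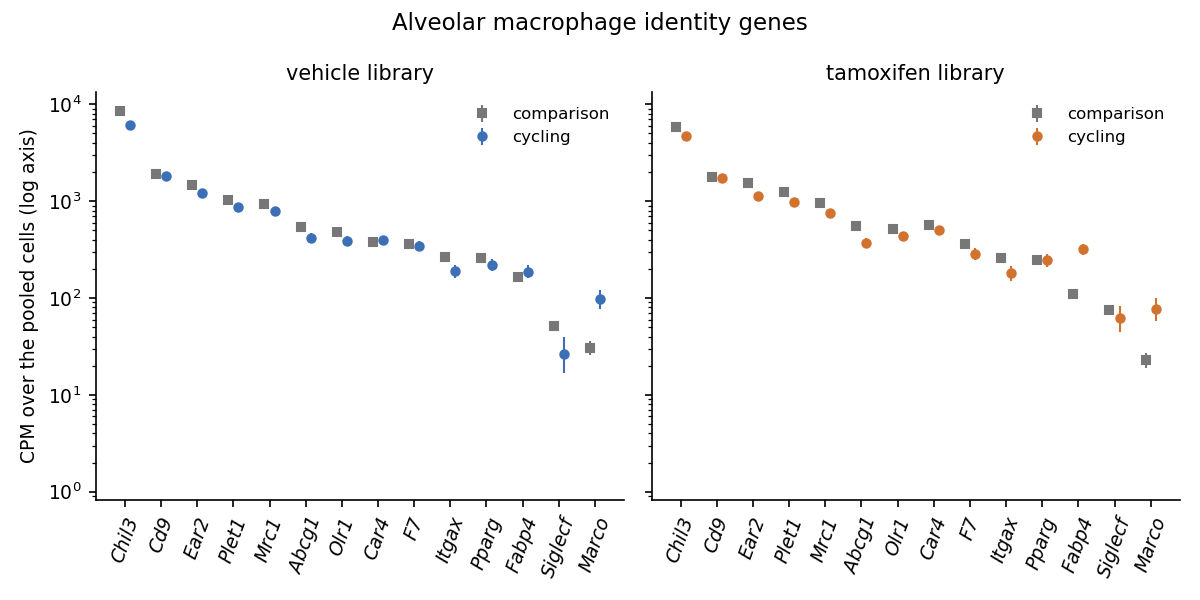
Level in CPM over pooled cells (y axis, log scale) of the 14 considered identity genes (x axis) in comparison (grey squares) and cycling (coloured circles) macrophages of each library, with exact Poisson 95% intervals that cover counting error only. Most genes lie slightly lower in the cycling cells, Marco lies higher in both libraries, and Fabp4 lies higher by more in the tamoxifen library (320 against 109 CPM) than in the vehicle library (187 against 163 CPM).

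The 91 genes called lower were mostly carried by few cells. Only 4 of them, Nav2, Apbb2, Mmp19 and Cdc42ep2, were detected in at least 25% of the comparison cells of both libraries, and 23 had 50% or more of their UMIs in 1 cell in either library. Nav2, a cytoskeletal protein of migrating cells, stood at 85.7 against 178 CPM and 49.2 against 115 CPM, and Mmp19, a matrix protease, at 34.3 against 108 CPM and 33.7 against 87.3 CPM. Of the 15 with the largest ratios (Mgp, Bgn, Cacna1c, Tagln, Csmd1, Tnc, Timp3, Ltbp2, Ereg, Serpine2, Acta2, Adgre4, Ccn2, Pdzrn3 and F2r), many are genes of fibroblasts and smooth muscle. Mgp, a matrix protein, stood at 18.3 against 709 CPM and 18.3 against 851 CPM and had 52.3% and 94.3% of its comparison UMIs in 1 cell. The summed fibroblast and mural markers stood at 2.28 CPM in cycling against 177 CPM in comparison cells and at 2.81 against 65.6 CPM, with 46.9% and 54.8% of the comparison sum in 1 cell. In the left-out macrophages 4 of the 91 (4.40%) were called lower, where the rule called 0.206% of all genes: Cdkn2a, Nav2, Fbxo32, a ubiquitin ligase of muscle wasting, and Ctsf, a lysosomal protease. Another 34 had the same sign without passing, making 38 of 91. Of all 8255 genes considered in the left-out macrophages, 2411 lay below 0 in both libraries. Only 50 of the 91 were considered there, so the 4.40% and the 0.206% have unlike bases.

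Epithelial cells (38 and 35 cycling) and T cells (70 and 35) of the same libraries that passed the same cycle rule were set beside the macrophages. Ccna2 stood at 178 and 135 CPM in cycling macrophages, 86.9 and 75.9 CPM in cycling epithelial cells and 158 and 117 CPM in cycling T cells, and Cdk1 at 184 and 187, 213 and 206, and 245 and 221 CPM. Ccnd1 was the D-type cyclin of the epithelial cells, at 208 and 241 CPM, against 5.71 and 9.84 CPM in the macrophages and 10.7 and 6.51 CPM in the T cells. Ccnd2 stood at 273 and 256 CPM in the macrophages, 152 and 142 CPM in the T cells and 5.03 and 30.2 CPM in the epithelial cells. Ccnd3 stood at 180 and 198 CPM in cycling T cells and at 636 and 526 CPM in the other T cells, a gap that the macrophages did not show.

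Other genes separated these dividing cells by level. Cdc20 stood at 64.0 and 91.4 CPM in the macrophages, 111 and 114 CPM in the T cells and 334 and 352 CPM in the epithelial cells. Hist1h1b ran from 91.9 and 163 CPM in epithelial cells through 192 and 201 CPM in macrophages to 1031 and 836 CPM in T cells. Cdkn2a stood at 301 and 345 CPM in cycling epithelial cells and at 293 and 388 CPM in the other epithelial cells, so its lower level in cycling cells was not seen there. It stood at 34.4 and 52.1 CPM in cycling T cells against 26.9 and 13.4 CPM in the others. With 1 library per treatment none of these differences between cell types was tested.

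Tamoxifen and vehicle were compared within the cycling macrophages, 59 cells against 77, under the same rule of size in this single pair of libraries. The rule called 388 of 8689 genes higher with tamoxifen (4.47%) and 336 lower (3.87%). In the comparison macrophages, it called 26 of 8250 higher (0.315%) and 97 lower (1.18%), and the 2 kinds of cell shared 3 and 15 genes. The comparison macrophages pooled 5154245 UMIs with vehicle and 5867200 with tamoxifen, against 875495 and 711428 in the members. The same CPM rests on fewer UMIs in the members, so the 2 sets of counts differ in counting error. In the members 242 of the 388 and 172 of the 336 had an interval that excludes 0. Endothelial markers summed to 3.43 CPM in the vehicle and 63.3 CPM in the tamoxifen members, 71.1% of the latter in 1 cell, against 25.03 and 17.6 CPM in the comparison macrophages; their part in these counts was not tested. Among the genes called in the cycling cells, 87 of the higher and 47 of the lower had 50% or more of their UMIs in 1 cell. A further condition kept called genes seen in at least 12 cells, with under 25% of their UMIs in 1 cell. Their interval also had to exclude 0, which left 78 higher and 85 lower. Of these, 1 and 6 were called the same way in the comparison macrophages and 43 and 56 had the same sign. Over all genes considered in the members, the median in the comparison macrophages was -0.05. The share of all genes with each sign was not counted, so the sign counts are not read as agreement. In the left-out macrophages, 228 of the 388 and 270 of the 336 reached 10 CPM and were considered. The same call was made for 11 (2.84% of the 388) and 57 (17.0% of the 336). Of all genes considered there 1.09% and 3.57% were called, so the bases of these shares differ. Of the 78 higher genes kept for being in many cells, 74 were considered there and 1 was called the same way (1.28%). Of the 85 lower ones, 82 were considered and 10 were called the same way (11.8%).

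The 10 genes each way with an interval farthest from 0 rested mostly on single members. Elane and Mpo, granule enzymes of neutrophil precursors, stood at 61.8 and 49.2 CPM in the tamoxifen library, all from 1 member, and at 0 UMIs in the vehicle library. Ccl22 and Ccl17, chemokines that attract T cells, stood at 471 and 553 CPM in the vehicle library, 99.5% and 93.4% of it from 1 member, and at 5.62 and 9.84 CPM in the tamoxifen library. Igfbp7, a secreted binding protein of the vessel wall, stood at 5.71 CPM with vehicle and 229 CPM with tamoxifen, 60.7% of it from 1 of 7 cells. The high values of Elane, Mpo, Ccl22 and Ccl17 in the members describe single cells, while that of Igfbp7 does so in part. In the left-out cycling cells Ccl22 stood at 101 and 1.42 CPM and Ccl17 at 210 and 41.9 CPM with vehicle and tamoxifen, the same way. Igfbp7 stood at 20.9 and 7.10 CPM there, the other way, Mpo at 0.696 and 0 CPM, and Elane at 0 CPM in both.

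Cell cycle genes were compared between the treatments as well. Of 170 considered, 2 were higher and 6 lower, with a median log2 ratio of -0.02, where the rule called 4.47% and 3.87% of all genes. Among the 6 were Ccne1 (29.7 CPM with vehicle and 9.84 CPM with tamoxifen), Ccne2 (28.6 and 7.03 CPM), Cdc6, a loader of the Mcm helicase (19.4 and 7.03 CPM), and Mcm10. In the left-out cycling cells Ccne1 stood at 24.4 and 26.3 CPM, Ccne2 at 27.2 and 20.6 CPM and Cdc6 at 16.0 and 14.2 CPM, so these gaps were not seen there. Spindle and cytokinesis genes had a median of -0.01 in the members and 0.53 in the left-out cycling cells.

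In both sets of cycling cells 57 genes were called lower with tamoxifen, and the ones described here were picked after their values were seen, for being in many cells. Aurkaip1, a mitochondrial ribosomal protein, stood at 188 CPM (161 to 220) with vehicle and 81.5 CPM (61.9 to 105) with tamoxifen, at 192 and 85.9 CPM in the left-out cycling cells, and at 160 and 70.7 CPM in the comparison macrophages. Fn1, fibronectin, stood at 848 CPM (788 to 911) and 298 CPM (259 to 341), with 639 and 238 CPM in the left-out cycling cells and 1247 and 590 CPM in the comparison macrophages. Phlda3, a p53-responsive inhibitor of Akt, stood at 48.0 CPM (34.6 to 64.8) and 9.84 CPM (3.96 to 20.3), with 36.9 and 15.6 CPM in the left-out cycling cells and 34.7 and 18.4 CPM in the comparison macrophages. These 3 genes had the same direction in all 3 sets of cells; among left-out macrophages that were not cycling, Fn1 stood at 503 and 522 CPM, with no such gap.

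Nr4a2, an early-response nuclear receptor, stood at 91.4 and 36.5 CPM in the members and at 101 and 36.9 CPM in the left-out cycling cells, and at 126 and 71.6 CPM in the comparison macrophages. Marcks, an actin-linked substrate of protein kinase C, stood at 120 and 50.6 CPM and, in the left-out cycling cells, at 176 and 66.7 CPM; the comparison macrophages stood closer, at 108 and 85.7 CPM. Hal, a histidine-degrading enzyme, stood at 148 and 71.7 CPM in the members and 179 and 79.8 CPM in the comparison macrophages, and Gdpd3, a phosphodiesterase of lysophospholipids, at 62.8 and 25.3 CPM and at 112 and 24.9 CPM.

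Called higher in both sets were 11 genes, Ccl2 among them, while Fabp1, Lepr and Apoe passed the rule in the members alone. Fabp1, a fatty acid carrier of liver and gut, stood at 142 CPM (118 to 169) with vehicle and 342 CPM (300.0 to 387) with tamoxifen, with 189 and 328 CPM in the left-out cycling cells and 158 and 302 CPM in the comparison macrophages, both under 2-fold. Lepr, the leptin receptor, stood at 115 and 274 CPM in the members and 227 and 345 CPM in the comparison macrophages, but at 182 and 214 CPM in the left-out cycling cells. Ccl2, a monocyte attractant, stood at 45.7 and 145 CPM in the members, from 8 and 10 cells, with 62.5% and 45.6% of its UMIs in 1 cell. It stood at 43.9 and 122 CPM in the left-out cycling cells and, the other way, at 45.0 and 22.2 CPM in the comparison macrophages. Apoe, a lipid carrier, stood at 421 and 1050 CPM in the members, with 65.9% and 41.6% of its UMIs in 1 cell, while the comparison macrophages had the opposite order, at 2519 and 1585 CPM, as did the left-out cycling cells, at 705 and 572 CPM.

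MHC class II genes lay lower with tamoxifen in the cycling cells without passing the rule. Their median log2 ratio of tamoxifen over vehicle was -0.34 in the members (8 of 9 below 0). It was -0.28 in the left-out cycling cells (9 of 9 below 0) and 0.03 in the comparison macrophages. Of all genes considered, 4339 of 8678 lay below 0 in the members and 4804 of 8692 in the left-out cycling cells. H2-Ab1, a beta chain, stood at 774 CPM (717 to 835) and 462 CPM (414 to 515) in the members and at 866 and 915 CPM in the comparison macrophages. Of 14 inflammatory mediators 1 was higher and 5 were lower (median -0.70, and -0.04 in the comparison macrophages), beside 4.47% and 3.87% of all genes. Il1b, an early cytokine, stood at 529 and 372 CPM in the members, and Cxcl3, Il6 and Ptgs2 were also lower in the left-out cycling cells (43.2 and 7.10 CPM for Cxcl3). In the comparison macrophages Cxcl3 stood at 91.4 and 154 CPM and Ptgs2 at 72.6 and 102 CPM, the other way, and Il6 at 37.4 and 36.8 CPM. In the members, 50% or more of the vehicle UMIs of Cxcl3, Il6 and Ptgs2 came from 1 cell, and the part of that cell in these gaps was not tested.

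**Figure D5:**
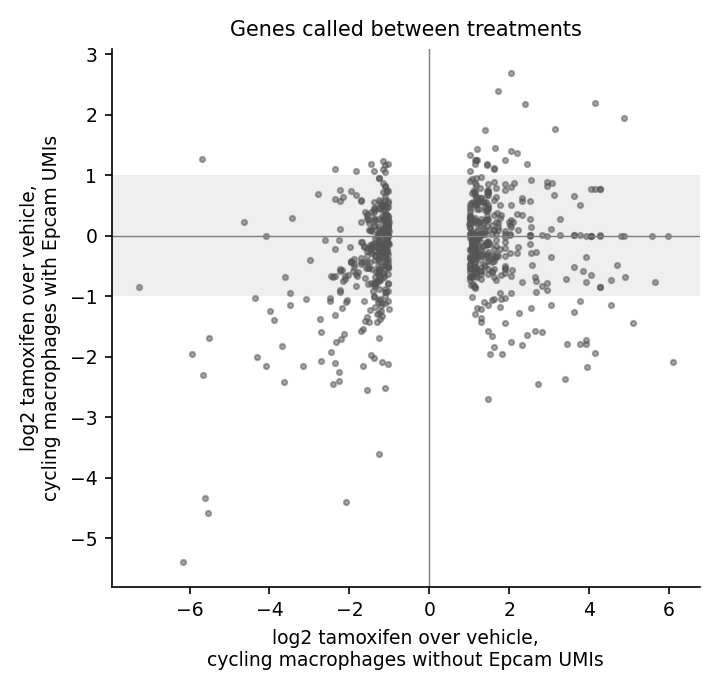
Log2 ratio of tamoxifen over vehicle for each gene called between treatments in the members (x axis) against the same ratio in the left-out cycling macrophages, which hold Epcam UMIs (y axis), 1 point per gene; the grey band spans changes under 2-fold on the y axis. No point lies between -1 and 1 on the x axis, since the call leaves those genes out, and most points lie in the band, with 11 of 388 called higher and 57 of 336 called lower in both.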

How the data were processed

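RNA was measured in single cells of 4 libraries of mouse lung tumours. The deposited matrices hold whole UMI counts per gene and cell barcode; per the file headers the authors wrote them with Cell Ranger 7.0.1, while the submitters' processing notes name 7.2.0 and the build mm10. Whether intronic reads were counted is not given in the sources used here. The 4 libraries held 6558 to 7867 barcodes, of which 6227 to 7511 passed a minimum of 200 genes and a mitochondrial maximum of 20% of UMIs. The members' UMIs summed to 875495 and 711428, the comparison macrophages' to 5154245 and 5867200, which limits the precision of low genes.

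UMIs were summed over the cells of a group and given as CPM of that group's total. Ratios are log2 of CPM with a pseudocount of 1 CPM. A gene was considered at 10 CPM in either group and called at 2-fold, in both libraries for cycling against comparison cells. This is a rule of size and no p-value was computed, since cells are not replicates, each group is 1 library and the cells were chosen by their RNA. Intervals are 95%: Clopper-Pearson for shares, exact Poisson for levels, and, for ratios, the exact binomial given the summed count (without the pseudocount). They and the limits for a count of 0 (3 counts) cover counting error only. Coordinates are those of GENCODE M21 (GRCm38) and promoters those of RefSeq (GRCm38.p6). The rule of size was tested on simulated data, where it missed more genes with lower than with higher levels in the cycling cells. Doublets were scored with Scrublet in scanpy 1.11.5; its automatic threshold failed in the tamoxifen library, so a score of 0.25 served as an alternative only. No cell was removed as a doublet in the values reported: 0 of 77 and 1 of 59 members reached that score.

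The members, gene lists and rules were chosen with earlier results of these data known. The rule for named genes took the 3 genes of each list with the largest mean ratio, a fixed set of cyclins, inhibitors, regulators and receptors, the 15 highest and 15 lowest genes outside the cell cycle lists, marker lists and gene models without a symbol, and the 10 genes each way between treatments whose interval lay farthest from 0. Every other gene named was picked after its values were seen, as a well-known member of a list or for how many cells carry it (among them Pcna, Mcm5, Cdk1, Ccne1, Chil3, Cd74, Nav2, Mmp19, Ptma, Ran, Aurkaip1, Fn1 and Fabp1). Also chosen after the data had been seen were the left-out cells, the conditions on how many cells carry a gene, the neutrophil gate, and 4 alternatives: no Epcam clause, a keratin clause in its place, leaving out the cell with the most UMIs of each gene, and a 30 CPM minimum. The alternatives fixed earlier were other cell filters, gate and cycle thresholds, comparison cells without cycle UMIs or matched on depth, TMM scaling (edgeR 4.0.16), median-of-ratios scaling, a mean over cells, the pseudocount and the CPM minimum. Clec7a was not analysed here.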

Additional observations from a re-analysis of the deposited data

Results flagged for a closer look

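Genes whose ratio of cycling over comparison macrophages lay in opposite directions in the vehicle and the tamoxifen library stood out, and in no case was the difference between the libraries tested. The values are the log2 ratio in the tamoxifen library minus that in the vehicle library. Il23a, a cytokine subunit, differed by -7.22, with 97.7% of its vehicle UMIs in 1 of 2 cells. Mir155hg, the host transcript of a microRNA, differed by -6.58, all of its vehicle UMIs being in 1 cell. Ccl22, a chemokine of dendritic cells and macrophages, differed by -6.08, with 99.5% of its vehicle UMIs in 1 cell, and the related Ccl17 by -5.35, with 93.4% in 1 cell. Tnfrsf9, a costimulatory receptor, differed by -4.18, with 81.0% of its vehicle UMIs in 1 of 5 cells. In the other direction, Igfbp7 differed by 7.45, with 60.7% of its tamoxifen UMIs in 1 of 7 cells, Col4a1, a basement membrane collagen, by 5.63, with 75.4% in 1 of 5 cells, and Nrg1, a growth factor of epithelia, by 5.47, with 95.3% in 1 of 2 cells. For each of these 8 genes, the higher of the 2 ratios thus rests mainly on a single member in 1 library. In the other library each gene was lower in the members than in the comparison macrophages. That part of the difference does not depend on the same cell, so the differences do not rest on it alone.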

How the results depend on the processing

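No paired analysis of the treatments was possible because each is 1 library before depletion, and for the same reason no replicate could be left out. The count of genes higher in cycling macrophages stayed within 1.5 times of 360 under all 16 alternatives that gave it, from 299 to 514, and no Epcam clause called 307 of the same 360. The other counts moved more. Genes lower in cycling cells, 91, became 60 with a mean over cells, 493 with no CPM minimum, 21 with no Epcam clause (11 of the 91 among them), 22 with the keratin clause and 158 without the cell holding the most UMIs of each gene. Genes higher with tamoxifen, 388, became 2037 with no CPM minimum, 125 with no Epcam clause (33 of the 388 among them), 74 with the keratin clause and 87 at 30 CPM; genes lower with tamoxifen, 336, became 1845, 154 (46 of the 336 among them), 144 and 96 under the same 4 settings. At 5 cycle UMIs for a member the shares of cycling cells were 8.58% and 5.63%. The vehicle share was the higher under every setting tried. The cause of these moves was not tested, beyond that the gene sets and cells tested differ by construction.

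Single genes that turned direction were mostly genes seen in few cells. With comparison cells matched on depth, the vehicle log2 ratios of Acta2, Serpine2 and Timp3 were each 1.72 and that of F2r was 0.61. With no Epcam clause, the vehicle ratios of Csmd1 and Ereg were 0.95 and 0.48, and the tamoxifen ratios of Acta2, Ereg, F2r and Serpine2 were 0.71, 0.016, 0.31 and 0.41. With the keratin clause the vehicle ratios of Csmd1 and Pdzrn3 were 2.27 and 0.19. Between treatments, Ccl22 was 0.22 at 6 macrophage UMIs for the gate, Clpb was -0.090 and Il23a 0.45 with the keratin clause, and Nrg1 was -0.10 without its highest cell. List medians moved in 92 of 810 cases. Turns of direction were not counted for list medians, and those near 0 can change sign with the scaling. Under TMM scaling the median of all genes in the tamoxifen library went from 0.058 to -0.077. Without the highest cell the median of all genes was -0.11 in the vehicle and -0.093 in the tamoxifen library, against 0.002 and 0.058 with it. Depth limits the calls on genes near 10 CPM, which rest on about 7 to 9 UMIs in the members.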
